A study of Mus musculus and Homo sapiens with 12 samples.

Results

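The elements described here are the mouse L1 copies outside the young L1Md and the older Lx groups. They were taken from the repeat table of mouse embryonic stem (mES) cells as every element of the L1 family whose subfamily name starts with neither L1Md nor Lx. The rule found 216942 of the 626336 L1 elements, and the whole table holds 3158171 repeat elements. The members carry 104 subfamily names. The rule works on letters, so 4 subfamilies called L1Lx_I to L1Lx_IV (39543 elements) and 33 elements named LX3 in capitals were kept.

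The table gives estimated read counts per element in 5-methylcytosine (m5C) meRIP–seq, in which RNA fragments are pulled down with an antibody against m5C and sequenced. The RNA was chromatin-associated RNA (caRNA), the fraction that stays with chromatin when nuclei are lysed. There were 3 libraries of wild-type (WT) mES cells and 3 of Tet2-knockout (KO) mES cells, all from the pulled-down fraction, and KO was compared with WT to ask which caRNA changes in that fraction without TET2, a dioxygenase that oxidises methylated cytosine in DNA and RNA. Both lines came from another laboratory and were grown in serum with LIF, CHIR99021 (a GSK3 inhibitor) and PD0325901 (a MEK inhibitor), and were passaged on gelatin to clear feeder cells. The labels do not give the Tet2 allele. The study's methods treat its meRIP–seq libraries as biological samples, without saying whether these were separate cultures or clones, and p-values measure only the spread between the libraries. The table has no columns of input RNA, spike-in or genes. A difference between KO and WT therefore mixes RNA abundance with m5C enrichment, is relative to the other repeats, and could not be set beside Tet2 itself or stem cell markers.

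L1 elements are autonomous retrotransposons. A full copy encodes an RNA-binding protein and a protein with endonuclease and reverse transcriptase activity, and it is copied into new sites from its RNA. Most copies are truncated at the 5′ end and no longer move. L1Md subfamilies hold the copies that are still active in the mouse. The L1M names (L1MA to L1ME) are given to copies spread through mammals, L1_Mur and L1_Rod names to copies of murine and rodent age, and HAL1 names to related elements that lack the second protein. Old copies are often cut apart by later insertions. In this annotation the pieces of a copy were joined into 1 element, so its span can include whole younger elements. A member whose span holds another element is called a host below, and the enclosed element is said to lie inside it.

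Both edges of such an insertion are shown first, because most counts of the members fell in hosts. The host is an L1MA4 element at chr13:37166947-37175277 (mm10, plus strand), whose span of 8331 bases holds only 477 bases of the L1MA4 consensus. The rest is mainly an L1MdA_I element of 7375 bases on the same strand. Capitals mark bases of the L1MdA_I element, and lower case marks the host, over chr13:37167022-37167101 and chr13:37174397-37174476. The run aagaaatgaagcaaca stands at both edges, which is the form of a target-site duplication, the short repeat that L1 insertion leaves.
left edge: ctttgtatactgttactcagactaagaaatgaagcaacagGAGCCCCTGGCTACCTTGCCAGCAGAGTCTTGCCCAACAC
right edge: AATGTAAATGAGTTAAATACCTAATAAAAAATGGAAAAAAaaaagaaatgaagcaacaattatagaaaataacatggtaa

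A second set shows why single copies can be hard to tell apart. L1ME3G has 15 copies of the same consensus stretch (bases 3876 to 5512) in a cluster on chromosome 7, with a median identity of 99.6% over the 105 pairs (lowest 89.4%). The pair printed is on the plus strand at chr7:15214380-15214499 and chr7:15450068-15450187. Capitals mark the 2 bases that differ in this window of 120, the most in any window without a gap.
L1ME3G copy near Obox4-ps19: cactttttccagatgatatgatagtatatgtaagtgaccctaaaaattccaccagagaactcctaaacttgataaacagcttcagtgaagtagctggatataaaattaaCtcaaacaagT
L1ME3G copy in Obox1: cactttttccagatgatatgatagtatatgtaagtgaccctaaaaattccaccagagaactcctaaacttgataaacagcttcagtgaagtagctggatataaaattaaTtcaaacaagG

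L1Lx_I has 20 such copies on chromosome 2, with a median identity of 97.9% over 190 pairs (lowest 94.0%). The printed pair is at chr2:176126816-176126935 (minus strand, read in the element's direction) and chr2:177340632-177340751 (plus strand), and 12 capitals mark the differences. This window of 120 bases was again the one with the most differences and no gap, and the whole copies of this pair were 95.3% identical.
L1Lx_I first copy: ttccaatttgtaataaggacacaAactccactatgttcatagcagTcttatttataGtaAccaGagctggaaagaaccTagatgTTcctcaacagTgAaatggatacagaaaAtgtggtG
L1Lx_I second copy: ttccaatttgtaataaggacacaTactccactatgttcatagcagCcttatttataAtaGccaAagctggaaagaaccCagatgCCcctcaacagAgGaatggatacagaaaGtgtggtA

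Counts over DNA, LINE, LTR and SINE repeats totalled 2199886 to 3318565 per WT library and 1532029 to 1999210 per KO library. The members took 67845.8 to 102665 counts in WT and 51295.5 to 67542.9 in KO. Counts were seen in 26910 members (12.4%), against 45.1% of the 170463 L1Md elements and 12.2% of the 238931 Lx elements. Only 23.5% of the members' non-zero values were whole numbers and 44.9% were below 1, so many reads were divided between elements or places. How they were divided is not given in the sources used here.

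The members took 3.08%, 3.24% and 3.07% of the counts in WT against 3.09%, 3.35% and 3.38% in KO. The groups overlapped. The mean was 3.13% ± 0.0942 (SD, n = 3) in WT against 3.27% ± 0.161 in KO, a log2 ratio of 0.06 (exact two-sided permutation test, 20 ways to assign the libraries, p = 0.2). The smallest p that this test can give is 0.1, so no comparison of shares below can pass a threshold of 0.05. Within L1 alone the share was 4.83%, 5.05% and 4.62% in WT against 5.31%, 5.61% and 5.77% in KO, without overlap (log2 ratio 0.20, exact p = 0.1). The L1Md share of all counts fell from 57.8% ± 1.40 to 51.4% ± 0.780 beside it (log2 ratio -0.17, exact p = 0.1), and the ratio of member to L1Md counts went from 0.0541 ± 0.00262 to 0.0637 ± 0.00276 (log2 ratio 0.23, exact p = 0.1). The Lx share of all counts was 3.79% ± 0.0590 in WT against 4.13% ± 0.0939 in KO, without overlap (log2 ratio 0.13, exact p = 0.1). The ratio of member to Lx counts was 0.826 ± 0.0135 in WT against 0.792 ± 0.0533 in KO, with overlapping groups (log2 ratio -0.06, exact p = 0.5).

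Most of these counts lay where a member shares its span with another repeat. Elements that overlapped another element of the table by at least 10 bases were 34.4% of the members and held 84.8% of their counts. Each host was placed in 1 class, taken in the order L1Md, Lx, LTR and other repeat. An L1Md host can thus hold other repeats as well, and its L1Md element can be short. Hosts with an L1Md element inside (at least 90% of its length) were 4.27% of the members (9269 elements) and held 52.5% of the counts. Hosts of Lx elements without L1Md held 4.00%, hosts of LTR retrotransposons without either 20.7%, and hosts of other repeats alone 6.00%. The 142384 members that overlapped nothing, called stand-alone below, held 15.2%. Per library the stand-alone share of member counts was 13.4%, 16.3% and 13.05% in WT against 13.3%, 16.1% and 19.4% in KO, with overlap. The share in hosts of L1Md elements was 54.9%, 52.4% and 56.5% in WT against 52.0%, 48.8% and 47.2% in KO, without overlap (log2 ratio -0.15, exact p = 0.1, adjusted over the 6 classes 0.3). Hosts of other repeats held 4.403%, 4.91% and 4.89% in WT against 5.77%, 9.64% and 8.39% in KO, also without overlap (log2 ratio 0.71, exact p = 0.1, adjusted 0.3).

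**Figure D1:**
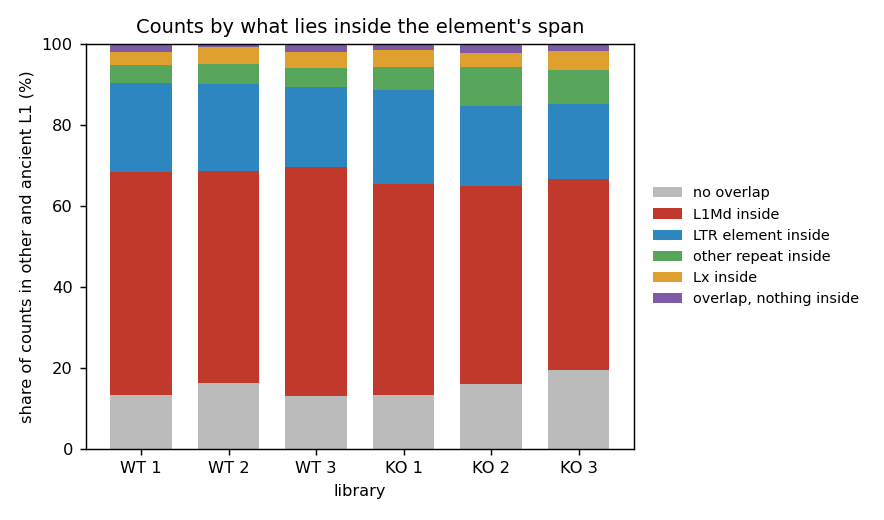
Stacked bars give, for each of the 6 libraries, the share (%) of the counts of other and ancient L1 elements by what lies inside the element's span. In every library the hosts of L1Md elements form the widest band, from 47.2% to 56.5%, and the members without overlap take 13.05% to 19.4%.

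Many hosts had the same counts as the element inside them. Among the 838 L1Md hosts with at least 50 counts over the 6 libraries, the median ratio of host counts to those of the longest L1Md element inside was 1.00, and 534 hosts (63.7%) lay within 0.05 of 1. In 297 hosts the counts matched within 0.01 in each of the 6 libraries. The L1MA4 host on chromosome 13 was one: it and its L1MdA_I element both had 45.02, 43.89 and 31.91 counts in WT against 134.91, 77.23 and 342.78 in KO. Over all 838 hosts the ratio spread widely, from 0.314 at the 10th percentile to 36.4 at the 90th. In 50 of them the longest L1Md element inside had no counts. An L1MB8 host with 1662.94 counts, for example, was classed by an L1MdA_VI element of 63 bases without counts. For the 309 LTR hosts with at least 50 counts the median ratio to the longest LTR element inside was 1.99, and 12.6% lay within 0.05 of 1.

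**Figure D2:**
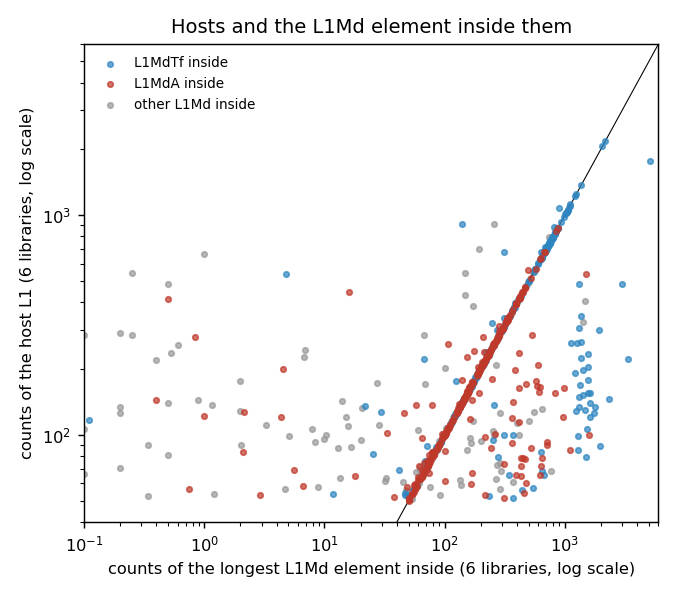
Each point is a host with at least 50 counts whose longest inner L1Md element had at least 0.1 counts (788 of 838), with the counts of that element on the x axis and those of the host on the y axis, summed over 6 libraries on log scales. Blue points hold L1MdTf, red points L1MdA and grey points another L1Md lineage. The line marks equal counts, and 534 of the 838 hosts have a ratio within 0.05 of 1.

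Hosts were grouped by the lineage of the longest L1Md element inside them, without regard to other repeats in their span. KO-to-WT differences varied between these groups, and 3 of the 7 groups were without overlap. Hosts of L1MdA elements (2247 elements) took 0.419%, 0.445% and 0.453% of all counts in WT against 0.569%, 0.585% and 0.578% in KO. Every KO library was above every WT library (log2 ratio 0.40, exact p = 0.1). Hosts of L1MdTf elements (503) took 0.819%, 0.801% and 0.864% in WT against 0.593%, 0.626% and 0.613% in KO. Every KO library was below every WT library (log2 ratio -0.44, exact p = 0.1). Hosts of L1MdGf elements (296) went from 0.143% ± 0.00764 to 0.111% ± 0.00455, again without overlap (log2 ratio -0.37, exact p = 0.1). Hosts of L1MdF, L1MdN and L1MdV elements overlapped between genotypes (log2 ratios -0.04, 0.25 and 0.33). Adjusted over the 7 lineage groups, the 3 values of 0.1 became 0.233. Without the host that differed most, the log2 ratios were 0.37 for L1MdA, -0.42 for L1MdTf and -0.31 for L1MdGf, still without overlap.

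L1MdA hosts were not uniform. Those with L1MdA_I inside took 0.124%, 0.135% and 0.132% in WT against 0.223%, 0.271% and 0.281% in KO (log2 ratio 0.98). Those with L1MdA_II inside had a log2 ratio of 0.34, and those with L1MdA_III inside fell by 0.45 on the log2 scale, from 0.115% ± 0.00548 to 0.0842% ± 0.0118. None of these groups overlapped (exact p = 0.1 each). The ratio of L1MdA-host to L1MdTf-host counts was 0.530 ± 0.0225 in WT against 0.946 ± 0.0127 in KO (log2 ratio 0.84, exact p = 0.1). The same ratio was computed within each of 6 age groups of host. It was higher in every KO library than in every WT library within murine and rodent (log2 ratio 0.73), other-named (1.02), other L1M (0.53), L1MA (1.53) and L1MB hosts (0.87), and overlapped in L1MC hosts (0.41).

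L1Md elements outside any member are separate elements, but how reads that match several copies were divided between them and those inside was not tested. Outside, the L1MdA share of counts was 12.1% ± 0.201 in WT against 17.3% ± 0.602 in KO (log2 ratio 0.51), the L1MdTf share 30.6% ± 1.23 and 21.8% ± 0.308 (log2 ratio -0.49), and the L1MdGf share 5.84% ± 0.107 and 4.22% ± 0.140 (log2 ratio -0.47), each without overlap (exact p = 0.1). For L1MdN and L1MdV the directions differed between both sets, at -0.74 and -0.31 outside.

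**Figure D3:**
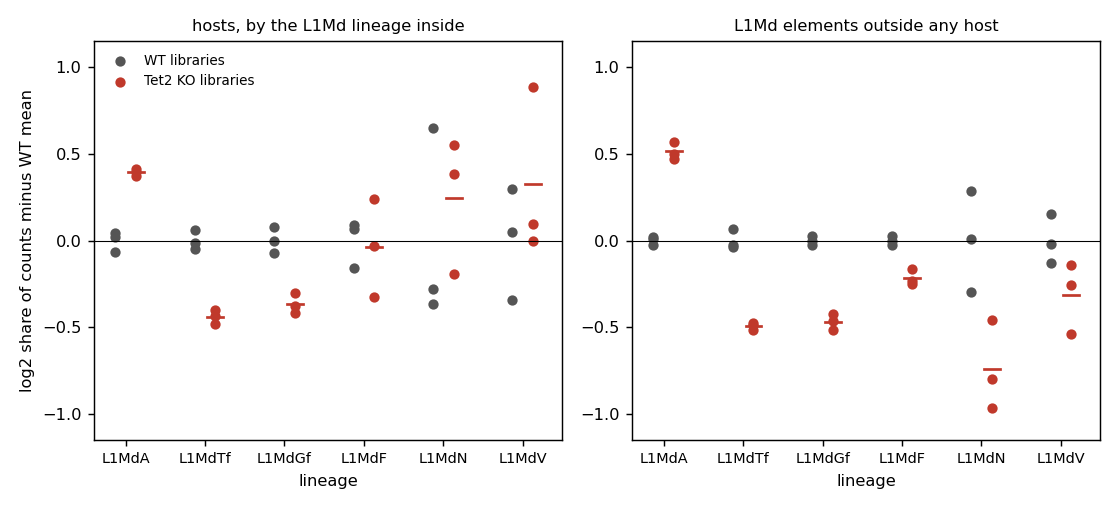
Points are libraries (grey WT, red Tet2 KO), plotted as the log2 share of all counts minus the WT mean, for hosts grouped by the L1Md lineage inside (left) and for L1Md elements outside any host (right), with a bar at the KO mean. L1MdA points of KO lie above all WT points on both sides and L1MdTf and L1MdGf points lie below, whereas L1MdF, L1MdN and L1MdV hosts overlap.

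Hosts of LTR elements were grouped in the same way for the 6 inner LTR elements with the most host counts. IAPEz-int, the internal part of intracisternal A particle elements, lay in 108 hosts, which took 0.181% ± 0.00753 of counts in WT against 0.156% ± 0.0184 in KO (log2 ratio -0.22). MERVL-int, the internal part of a retrovirus-like element known from 2-cell embryos, lay in 42 hosts, with 0.0520%, 0.0816% and 0.0415% in WT against 0.0389%, 0.0136% and 0.0257% in KO (log2 ratio -1.23). MTA_Mm lay in 624 hosts (log2 ratio -0.81). KO was below WT in all 3 without overlap (exact p = 0.1, adjusted over the 6 groups 0.2), but in each the separation rested on 1 host. Without the L1M2 host at chr9:99266449-99274370 the hosts of MERVL-int took 0.0351%, 0.0355% and 0.0370% in WT against 0.0359%, 0.0128% and 0.0251% in KO (log2 ratio -0.67). Without 1 host each, the log2 ratios were -0.06 for IAPEz-int and -0.52 for MTA_Mm, and the groups overlapped in all 3. They also overlapped for ETnERV-int, RLTR6-int and ORR1A2.

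By age, murine and rodent names held 33.3% of member counts, the group of other names (nearly all L1Lx, which alone held 29.6%) 29.7%, other L1M names 11.9%, and L1MC, L1MA, L1MB, L1ME and L1MD 6.02%, 5.75%, 5.54%, 4.07% and 2.82%. Mouse-lineage names (0.488%) and half-L1 names (0.424%) were the smallest. L1MC elements took 0.156%, 0.182% and 0.164% of all counts in WT against 0.190%, 0.202% and 0.286% in KO (log2 ratio 0.41). L1ME elements took 0.117%, 0.107% and 0.119% in WT against 0.148%, 0.134% and 0.179% in KO (log2 ratio 0.42). Half-L1 elements took 0.00797%, 0.00989% and 0.00896% in WT against 0.0297%, 0.0129% and 0.0193% in KO (log2 ratio 1.13). These 3 did not overlap (exact p = 0.1, adjusted over 10 groups 0.333), but each rested on 1 subfamily. Without L1MCa the L1MC log2 ratio was 0.22, and without L1ME3G that of L1ME was 0.08, both with overlapping groups. Without HAL1 the half-L1 share was lower in every KO library than in every WT library (log2 ratio -0.45). Of the 16 L1ME subfamilies tested 8 were above 0, with a median log2 change of 0.05, and of the 11 L1MC subfamilies 7 were, with a median of 0.22. The other 7 overlapped, with log2 ratios from -0.52 for mouse-lineage names to 0.13 for L1MA.

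Of the 104 subfamilies, 102 had counts (L1M2a1 and LX3 had none) and 80 passed the filter on low counts. The other 24 held 662.2 counts in all. The edgeR quasi-likelihood test called 0 of the 80 at an adjusted p under 0.05, against 2.01% of all 547 subfamilies tested (11, of which 2 were higher in KO). The lowest adjusted p among members was 0.155. At an unadjusted p under 0.05 there were 8 members (7 higher, 1 lower), or 10.0% against 15.9% of all (48 higher, 39 lower). The DESeq2 Wald test called 4 members, or 5.00% against 10.2% of all (23 higher, 33 lower): L1ME3G, HAL1 and L1MC4a higher and L1MD2 lower. In TMM-normalised values KO lay wholly above WT for 10 members (12.5%, against 11.2% of all) and wholly below for 14 (17.5%, against 10.4%). The median log2 change was -0.06 over the members and 0.12 over all subfamilies, and 36 of 80 members were above 0. With library totals in place of TMM the median of all moved by 0.17 and that of the members became 0.11, which left it 0.18 below the median of all, as before. Of the Lx subfamilies 0 of 21 were called (median -0.11), and of the L1Md subfamilies 7 of 25, 1 of them higher (median -0.46).

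**Figure D4:**
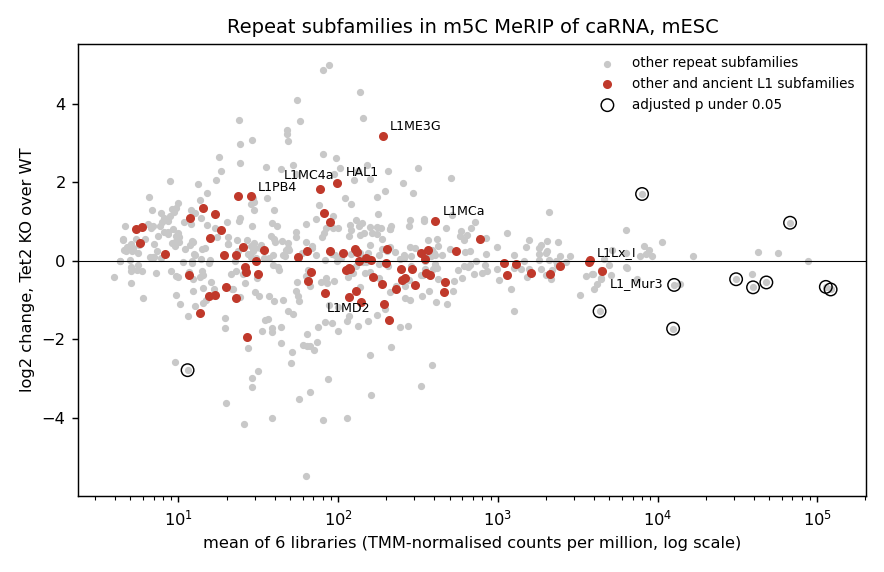
Each point is 1 of 547 repeat subfamilies, with the mean of 6 libraries in TMM-normalised CPM (counts scaled to a common library size) on a log x axis and the edgeR log2 change of Tet2 KO over WT on the y axis. Red points are the 80 other and ancient L1 subfamilies and open circles the 11 called subfamilies, none of which is red. The most abundant red points lie near 0.

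The 12 members with the highest levels held 73.6% of member counts, and their log2 changes lay between -0.55 and 0.55. L1_Mur3 was the highest, with 4687, 5319 and 4740 CPM (counts scaled to a common library size with TMM factors) in WT against 4269, 3917 and 4122 in KO. KO was below WT throughout (log2 change -0.26 ± 0.12 SE, edgeR adjusted p = 0.330). L1Lx_III had 2142, 2680 and 2332 CPM in WT against 1769, 1847 and 2013 in KO, also without overlap (-0.35 ± 0.17, adjusted p = 0.344). Both separations depend on the TMM scaling. As shares of all counts, the groups overlapped for L1_Mur3 and for L1Lx_III. L1_Mur2 had a mean of 3742 ± 458 CPM (SD) in WT against 3808 ± 601 in KO, and L1Lx_I 3772 ± 343 and 3723 ± 422. The groups overlapped for these and for L1Lx_IV, L1M2, L1_Rod, L1Lx_II, L1_Mur1, L1M4, L1MC1 and L1M3. L1M4 was the highest of the 12 in change (0.55 ± 0.32) and L1M3 the lowest (-0.55 ± 0.36).

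L1ME3G had the lowest p of all members. It had 20.2, 18.2 and 72.2 CPM in WT against 201, 173 and 656 in KO, so that all KO libraries were above all WT libraries (log2 change 3.19 ± 0.85 SE, edgeR adjusted p = 0.155). Most of its counts came from 2 places. A host at chr6:85749007-85752606, which overlaps an exon of the pseudogene Alms1-ps1, held 41.3% of them, with 0, 0 and 113.06 counts in WT against 134.16, 142.33 and 596.79 in KO. The 15 duplicated copies on chromosome 7 held 48.1%.

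Those 15 copies lie between 14773505 and 15451393 on chromosome 7, and 13 of them lie within 5000 bases of an Obox gene or pseudogene. Obox genes encode homeobox proteins of the oocyte and early embryo. The copies sum to 0, 0.6 and 1.1 counts in WT against 206.7, 117.43 and 823.7 counts in KO. No single copy passed 0.3 counts in a WT library. In 12 of the 15 every KO library was above every WT library, and the remaining 3 had 0.2 counts in 1 case and none in the others. The copy in an intron of Obox1 had 0, 0 and 0.1 counts in WT against 9.07, 10 and 172.14 in KO, and the copy near Obox4-ps19 had 0, 0 and 0.3 in WT against 19, 21.4 and 31.63 in KO. WT was too close to 0 for a fold. The copies tested as single loci passed the filter on low counts only through KO, so no p is given for them. These copies were looked at because the subfamily stood out, so their own values are a description. When only elements with whole-number counts were kept, the copies fell out and the L1ME3G log2 change was -0.77.

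**Figure D5:**
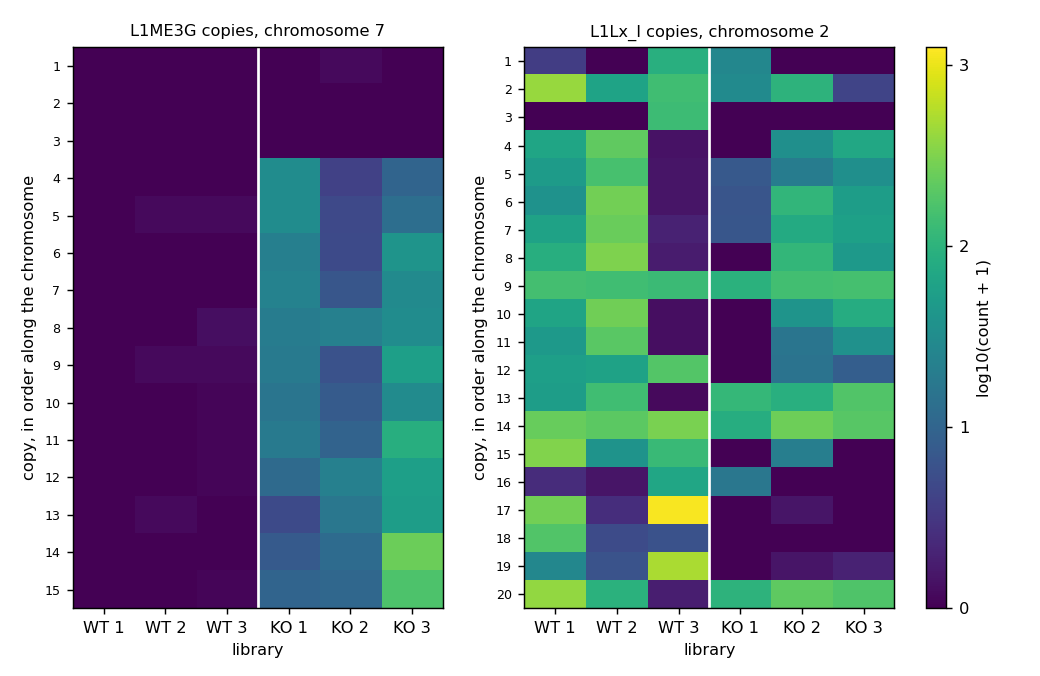
Rows are the 15 L1ME3G copies of chromosome 7 (left) and the 20 L1Lx_I copies of chromosome 2 (right) in chromosome order, columns are libraries, and colour is log10(count + 1). The L1ME3G copies are dark in all 3 WT libraries and 12 of them hold counts in all 3 KO libraries, while the L1Lx_I copies differ from library to library within a genotype.

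HAL1, L1MC4a and L1PB4 each drew over 40% of their counts from 1 locus. HAL1 had 24.9, 51.2 and 41.6 CPM in WT against 254, 75.8 and 143 in KO (1.98 ± 0.67, adjusted p = 0.234), and 40.5% of its counts lay in a host at chr12:8990578-8994172 that overlaps an exon of Wdr35. L1MC4a had 32.8, 32.4 and 35.6 CPM in WT against 198, 96.2 and 68.5 in KO (1.82 ± 0.63, adjusted p = 0.234). Of its counts 45.5% lay in a host with IAPEy-int inside, at chr2:157651228-157656645. That host had 8.05, 21.03 and 4.5 counts in WT against 294.97, 51.6 and 44.57 in KO. The IAPEy-int element itself had 0, 3.65 and 13.82 in WT against 2.53, 6.3 and 4.92 in KO, so it did not share the host's difference. L1PB4 had 13.6, 15.5 and 10.7 CPM in WT against 64.9, 33.3 and 31.5 in KO (1.64 ± 0.57, adjusted p = 0.234), and 78.7% of its counts lay in 1 host with L1MdA_II inside, in an intron of Slc44a5. The KO libraries of HAL1, L1MC4a and L1PB4 were all above WT.

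L1MCa had 279, 229 and 291 CPM in WT against 275, 662 and 694 in KO, with overlap (1.03 ± 0.43, adjusted p = 0.301). L1MD2 was the only one lower in KO, with 266, 293 and 238 CPM in WT against 119, 136 and 113 in KO, without overlap (-1.11 ± 0.40, adjusted p = 0.240). Its counts were 57.6% in hosts of L1Md elements, and its highest locus held 14.4%. With overlapping members left out the HAL1 change was 0.21 ± 0.41 and that of L1MC4a 0.63 ± 0.40. L1ME3G went to 4.29 ± 0.92 (adjusted p = 0.0584). L1MD2 went to -2.92 ± 1.35, with 148.4 CPM in WT replicate 1 against 7.08 and 3.17 in the other WT libraries and 5.13, 5.53 and 7.80 in KO. With whole-number elements alone the L1MD2 change was 0.27.

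Leaving out every member that overlaps another element kept 48 member subfamilies in the test. Of these 0 were called, against 2.33% of all 515 subfamilies. The median log2 change of the 48 was 0.34 and that of all 0.10, with 37 of 48 above 0. L1M2, for example, turned from -0.30 ± 0.25 to 1.35 ± 0.86, and L1MC1 went from 0.25 ± 0.40 to 2.74 ± 0.87, from 8.10, 11.1 and 3.52 CPM in WT to 62.2, 14.1 and 90.9 in KO. This removal was chosen after the overlap had been seen.

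Counts of single loci are given as deposited, without scaling to depth. At single loci the edgeR test called 0 of 843 member loci at an adjusted p under 0.05, against 0.0473% of all 19030 loci (9). At an unadjusted p under 0.05 there were 141 member loci (16.7%, against 21.0% of all), 93 of them higher in KO. Over all loci 2492 were higher and 1508 lower. DESeq2 called 80 (9.49%, against 11.3% of all), 60 higher, and over all loci it called 1507 higher and 651 lower. Among the 232 tested hosts of L1MdA elements 63 had an unadjusted p under 0.05 and 59 of these were higher in KO (median log2 change 0.70). Among the 218 hosts of L1MdTf elements there were 14, of which 2 were higher (median -0.25). Of 40 stand-alone loci 6 had an unadjusted p under 0.05, 5 of them higher. Those higher include L1ME3G copies of chromosome 7, which passed the filter on low counts only through KO.

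Of the named loci higher in KO, an L1Lx_I host at chr6:108081148-108089645 with MMETn-int inside had 36.89, 50.13 and 50.42 counts in WT against 160.89, 127.12 and 111.42 in KO (log2 change 2.48 ± 0.35, edgeR adjusted p = 0.0782). An L1_Mur3 host at chr4:26135422-26145001 with L1MdA_II inside had 16.21, 33.33 and 24.43 counts in WT against 141.16, 44.67 and 83.66 in KO (2.74 ± 0.51, adjusted p = 0.101). The L1MA4 host printed above had a log2 change of 2.99 ± 0.57 (adjusted p = 0.101). All 3 were separated between genotypes.

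Of those lower in KO, an L1_Mur2 host at chr6:132164635-132175613 with L1MdF_I inside had 38.31, 77.86 and 32.62 counts in WT against 0.8, 2.24 and 0.25 in KO. An L1M4c host at chr12:91139025-91144653, overlapping an exon of Cep128 and holding RLTR10, had 67.84, 209.26 and 27.82 counts in WT against 2.95, 0.72 and 0.75 in KO. An L1MB2 host of an Lx element at chr11:70309817-70312766 had 76.78, 23.13 and 25.12 counts in WT against 0.38, 0 and 0.82 in KO. The longest element inside this host was MT2A (701 bases), with 0 counts in each library. KO counts of these lower loci were near 0, and the loci passed the filter on low counts only through WT. No fold or p is therefore given for them, and they were listed because their p was lowest.

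Of the 6 loci with the highest counts, 1 had all KO counts below all WT counts. An L1M2 host with MERVL-int inside, at chr9:99266449-99274370 in an intron of Cep70, had 371.75, 1464.12 and 148.25 counts in WT against 52.92, 11.5 and 11.3 in KO (log2 change -3.64 ± 1.00, edgeR adjusted p = 0.117). The MERVL-int element inside had 51.51, 91.34 and 207.21 counts in WT against 10.53, 9.4 and 12.02 in KO, so the WT counts of host and inner element did not match. The highest locus of all was a stand-alone L1_Mur3 element at chr13:65522335-65524685, in an intron of the pseudogene Gm48165, with 346.48, 1470.07 and 576.61 counts in WT against 479.82, 70.5 and 0 in KO. A similar L1_Mur3 element at chr13:65654993-65657343 had 352.78, 1318.57 and 107.78 in WT against 279.33, 1 and 0 in KO. The other 3 were hosts, an L1MC1 element with ETnERV-int inside that overlaps an exon of Rcbtb2, an L1Lx_I element with L1MdTf_I inside in an intron of A830018L16Rik and an L1_Mur2 element with MMVL30-int inside on chromosome X, with log2 changes of 0.31, 0.30 and 0.36.

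Stand-alone members hold no other repeat of the table, and their counts were concentrated in a few regions. Of 189 stand-alone loci with at least 50 counts, 105 (55.6%) had at least 90% of them in 1 library, against 8.00% of the 838 hosts of L1Md elements. Regions on chromosomes 2 (175000001 to 178000000), 13 (62000001 to 67000000), 4 (145000001 to 148000000) and 14 (41000001 to 42000000) held 44.1% of all stand-alone counts in 532 elements. They were chosen by eye as runs of neighbouring 1-Mb windows around the 7 windows with the most counts, so windows of fewer counts beside them are included and others of more, such as chromosome 13 from 12000001 to 13000000, are not. The chromosome 2 region held 17.7%, with 8 genes named Zfp and 74 named Gm of 84 annotated, and the chromosome 4 region 7.08%, with 18 Zfp genes of 105. The chromosome 13 region held 15.9%, with 6 Zfp and 156 Gm genes of 225. The chromosome 14 region held 3.35%, with 0 Zfp and 31 Gm genes of 41. Zfp names mark zinc-finger genes, which occur in clusters of recent duplicates. The window of chromosome 13 from 12000001 to 13000000 held 2.99% of stand-alone counts, all in 1 KO library (KO replicate 3). Outside the 4 regions stand-alone members took 0.218%, 0.245% and 0.209% of all counts in WT against 0.289%, 0.320% and 0.418% in KO (0.317% for the last without that window), and inside 0.195%, 0.281% and 0.191% in WT against 0.122%, 0.219% and 0.239% in KO.

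The 20 L1Lx_I copies of chromosome 2 held 48.6% of the stand-alone counts of L1Lx_I. They sum to 2507.72, 2439.55 and 2844.93 counts in WT against 481.36, 1243.98 and 1095.94 in KO. As shares of all counts these were 0.114%, 0.0769% and 0.0857% in WT against 0.0280%, 0.0812% and 0.0548% in KO, so that the groups overlapped once depth was taken into account. The copy at chr2:176126506-176130704, the first of the printed pair, had 147.18, 142 and 128.56 counts in WT against 94.52, 143.85 and 151.63 in KO. Scaled to depth, its log2 change was 0.86 ± 0.37 SE (edgeR adjusted p = 0.245). The second, at chr2:177336864-177341063, had 270.86, 1.53 and 1161.57 in WT against 0, 0.5 and 0 in KO. In 3 of the 20 copies at least 90% of the counts came from 1 library. Copies of 1 subfamily are no replicates of a genotype.

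Of the stand-alone loci with the lowest p, an old mammalian L1MC3 element at chr1:69823013-69823566 lay apart from such clusters, 3404 bases from Spag16. It had 25.63, 20.25 and 25.94 counts in WT against 77.31, 47.51 and 55.48 in KO (log2 change 2.15 ± 0.45, edgeR adjusted p = 0.101), and every KO library was above every WT library. It was chosen after its values were seen. Its first 250 bases, at chr1:69823317-69823566 on the minus strand, are printed in the direction of the element to show that they include a run of 84 bases of the unit gaa, a simple repeat that occurs in many places.
L1MC3: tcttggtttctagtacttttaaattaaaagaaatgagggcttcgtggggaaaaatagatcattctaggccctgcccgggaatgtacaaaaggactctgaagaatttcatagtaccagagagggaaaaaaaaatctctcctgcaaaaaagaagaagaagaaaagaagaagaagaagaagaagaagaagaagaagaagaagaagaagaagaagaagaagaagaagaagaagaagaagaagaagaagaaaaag

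By position, 3.12% of the members overlapped an annotated exon, 37.7% lay in introns and 59.0% between genes, with 8.30%, 27.3% and 64.4% of the counts. The share between genes was 65.2%, 65.2% and 66.9% in WT against 64.4%, 61.4% and 60.9% in KO, without overlap (log2 ratio -0.08, exact p = 0.1, adjusted over 3 places 0.3). Exonic and intronic shares overlapped (log2 ratios 0.25 and 0.10). Among stand-alone members alone the intronic share was 26.5%, 24.97% and 34.1% in WT against 37.7%, 42.8% and 43.3% in KO (log2 ratio 0.54, exact p = 0.1, adjusted 0.15). The share between genes fell from 68.3% ± 4.75 to 56.4% ± 3.13.

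Base composition was read from the reference sequence. Stand-alone members of at least 200 bases had a median GC content of 37.6% and 0.412 CpG per 100 bases, L1Md elements 43.7% and 0.717, and Lx elements 42.9% and 0.412. Among the members the group of other names, mostly L1Lx, had the highest median GC content (44.8%) and other L1M names the lowest (34.8%). L1MB had the most CpG (0.647 per 100 bases) and murine and rodent names the least (0.334). Stand-alone members with counts had a median GC content of 39.5% and those without 37.4%. These values carry no test.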

How the data were processed

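Reads were trimmed (Trimmomatic 0.39) and aligned to mm10 (HISAT2 2.1.0) by the authors, who removed duplicates with Picard and counted reads over repeat elements joined by One-code-to-find-them-all. The deposited mouse table holds these estimated counts, which need not be whole. How reads with several places or overlapping elements were divided is not given in the sources used here. Columns of the human table were not used here. No columns of other samples were present.

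Counts were summed per subfamily over 4 classes, rounded to whole numbers and fitted with edgeR 4.0.16 in R 4.3.3 (filterByExpr, TMM, prior count 2, quasi-likelihood F test, Benjamini–Hochberg adjustment over all subfamilies or loci, call at adjusted p under 0.05). Each standard error (SE) is the size of the log2 change over the root of F. Only WT and Tet2-KO mES cell libraries entered. Shares were compared as differences of mean log2 shares with an exact two-sided permutation test. DESeq2 1.42.0, other filters and scalings, a replicate block and leaving out each library were alternatives. Overlap used bedtools 2.31.1 and GENCODE release M21, which is not the authors' release. Sequences came from RefSeq's GRCm38.p6. Software included Python 3.11.15, pandas 2.3.3 and Biopython 1.88. Models were tested on simulated data. Depth limits low loci, and the counting error of shared reads is unknown.

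Named subfamilies were every called member, the 12 with the highest levels, and up to 6 per direction with an unadjusted p under 0.05 and a mean of at least 50 counts. Named loci were the 6 with the highest counts and 3 per direction with the lowest p and a mean of at least 20 counts. The members and lists were chosen with earlier results of these data known. The grouping by inner element and the clusters of copies were chosen after the counts were seen.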

Additional observations from a re-analysis of the deposited data

How the results depend on the processing

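Of 555 recomputed values for 43 results, 494 were counted as unchanged, 55 changed sign (21 of them without 1 library), and 6 moved under the DESeq2 Wald test or gained a call there. Unchanged means the same sign for shares and ratios, the same sign and side of the threshold for named subfamilies, or an equal number of calls. Shares that shrank or lost their separation with the same sign are thus among the 494, such as L1ME without L1ME3G. The edgeR count of called members was 0 under each alternative run, while DESeq2 called 4 subfamilies and 80 loci, with log2 changes of 3.15 for L1ME3G, 1.97 for HAL1, 1.81 for L1MC4a and -1.17 for L1MD2. The cause of these differences was not tested. With the replicate number as a block, 0 members were called. For shares the block gives the same log2 ratio by arithmetic, such as 0.06 for the member share. Those values are counted among the 494 but could not have differed. The deviations of same-numbered libraries correlated at -0.0935, -0.0356 and -0.0458, so the numbers were not taken as pairs, and the block lowered the number of all subfamilies called from 11 to 0. The hosts of L1MdA, L1MdTf and L1MdGf elements kept their direction under each alternative run for them. L1_Mur2 was -0.0294 with size factors, -0.0295 with DESeq2, -0.0727 with no filter, -0.0729 without exonic elements, and -0.44 with whole-number elements. With library totals L1Lx_I was 0.16, L1Lx_IV 0.0528, L1_Rod 0.11 and L1_Mur1 0.11. With whole-number elements alone L1Lx_IV was 0.18, L1MC1 -0.38, L1M3 0.0289, L1ME3G -0.77, L1MD2 0.27 and the member share -0.0641. Without exonic elements L1Lx_IV was 0.00228, murine and rodent names -0.00269 and other L1M names 0.0115. With overlapping members left out, chosen after seeing the data, L1Lx_I was 0.0180, L1Lx_IV 0.67, L1M2 1.35, L1_Rod 0.56, L1_Mur1 0.47, L1M3 0.27, L1MB names 0.0488, other L1M names 1.27 and the ratio of members to Lx 0.12. Without the subfamily or host that differed most between genotypes, also chosen after seeing the data, half-L1 names were -0.45, murine and rodent names -0.0163, other names -0.0632 and hosts of L1MdN -0.20. Other L1M names were 0.14 of L1 counts and 0.0795 without the 10 highest elements, and the exonic share was -0.15 where at least 50% of an element had to lie in exons. When 1 library at a time was dropped, the lowest and highest values were -0.0768 to 0.13 for L1_Mur2, -0.0839 to 0.0660 for L1Lx_I, -0.22 to 0.0146 for L1Lx_IV, -0.28 to 0.0885 for L1_Rod, -0.19 to 0.10 for L1_Mur1, -0.22 to 0.46 for L1MC1, -0.000977 to 0.11 for murine and rodent names, -0.0909 to 0.0946 for other L1M names, -0.0544 to 0.0920 for other names, -0.18 to 0.10 for hosts of L1MdF and -0.56 to 0.0265 for hosts of other L1Md elements. L1ME3G ranged from 2.31 to 4.09. Depth limits single loci: of 216942 members 843 could be tested, and 3 libraries a group cannot bring an exact p below 0.1.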
